A study of Bos taurus with 4 samples.

Results

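The genes described here encode the proteasome and its helpers: all array probes whose annotated gene symbol begins with PSMA, PSMB, PSMC, PSMD, PSME, PSMF or PSMG. This rule found 79 probes of 47 genes, out of 43794 transcript probes and 15216 genes. The samples were pools of 10 bovine (Bos taurus) morulae, embryos produced in vitro with oocytes from abattoir ovaries and collected 120 h after fertilization. In the high glucose group (HG), the synthetic oviductal fluid of the first culture step, day 0 to day 3, held 5 mM glucose. In the control group (CTL) it held 0.2 mM. Both groups then spent the second step, to day 5, in the same control medium, so HG embryos were exposed during cleavage and sampled later. The labels give no genotype or embryo sex. They attach the breed Holstein to 1 channel of each array, which held CTL on arrays 1 and 2 and HG on arrays 3 and 4.

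Each of 4 two-colour arrays carried 1 HG pool and 1 CTL pool, 4 pools of each in all. HG was labelled with Cy5 on arrays 1 and 2 and with Cy3 on arrays 3 and 4. Values are log2 ratios of HG over CTL, so that a negative value means less signal in HG. They are given in the order of arrays 1 to 4 or as mean ± SD over the 4 arrays (n = 4). A level is the normalised log2 signal of 1 pool on 1 probe, and levels of different genes are not compared because probes differ in brightness. A pool is a bulk sample, in which fewer cells of a type and less RNA per cell cannot be told apart.

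The proteasome is the protease that degrades proteins tagged with ubiquitin. Its core is a barrel of outer alpha rings, which gate entry, and inner beta rings, which hold the cutting sites. Caps bind the barrel's ends: the cap's base carries a ring of ATPases that unfold the substrate, and its lid removes the ubiquitin chain. Other activators open the barrel without the cap's ATPases, and dedicated chaperones assemble core and base. After fertilization the ubiquitin and proteasome pathway removes proteins inherited from the oocyte while the embryo takes over transcription.

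Of the 47 genes, 43 (67 probes) had signal above background in every pool of at least 1 of the groups and were tested. No spot of a proteasome probe was marked as ignored. The 4 genes not tested were PSMA8, the testis form of an alpha subunit, PSMB8, an inducible beta subunit, PSMB11, the thymus beta subunit, and PSMG3, a core assembly chaperone. PSMB8 was above background in 0 of 4 HG pools and 0 of 4 CTL pools. PSMA8 was above background in 0 of 4 HG pools and 1 of 4 CTL pools, PSMB11 in 3 of 4 HG pools and 1 of 4 CTL pools, and PSMG3 in 2 of 4 HG pools and 2 of 4 CTL pools. PSMC3IP, which carries the prefix but encodes a meiotic recombination factor, was kept as a member outside every class (0.38, -0.26, -0.61 and 0.34, mean -0.04 ± 0.48).

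Over the whole array, 8865 genes were tested. The median raw spot intensity on arrays 1 to 4 was 210, 212, 287 and 211 for Cy3, and it was 153 to 163 for Cy5. The highest of these, Cy3 on array 3, came from the channel of that array's HG pool. Of the 14 morula markers listed for context, 9 were tested, and 7 of these had a mean below 0 (median of the means -0.54, array medians -0.27, -0.34, -1.24 and -0.38). The pluripotency factor POU5F1 had a mean of -0.54 ± 0.37, while NANOG and KLF4 had means of 0.47 ± 0.65 and 0.38 ± 0.91. KRT8, a keratin of early epithelia, had ratios of -1.69, -2.78, -1.84 and -0.92 (mean -1.81 ± 0.76, limma, adjusted p = 0.763), the lowest mean of all tested genes. CDX2, GATA3, CDH1, SOX2 and SALL4 were not above background in all 4 pools of either group. The arrays did not share 1 pattern. Over 20198 tested probes the ratios of array 1 correlated with those of array 3 at r = -0.444, while every other pair of arrays lay between 0.0451 and 0.225. Arrays 1 and 3 also stood apart in 13 tested stromal markers of 17 listed, whose median ratio was -1.94, -0.06, 2.13 and -0.64. The summed signal of these markers was 27192, 38969, 200898 and 50364 in the HG pools, against 95111, 48812, 64354 and 92934 in the CTL pools. The 8 tested markers of cumulus and granulosa cells, of 22 listed, had medians of -1.70, 0.08, 1.69 and -0.20. Their summed signal ran between 12031 and 63333 in the HG pools and between 16594 and 48233 in the CTL pools. The stromal collagen COL6A1 and the cumulus markers AMH, FOXL2 and LHCGR were above background in 0 of 4 HG pools and 0 of 4 CTL pools. Other untested cumulus markers were above background in part of the pools: FSHR, GREM1, INHA and PTGS2 reached 3 of 4 in each group.

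The comparison asks whether high glucose during cleavage left a difference in proteasome transcripts at the morula stage. The mean ratio lay below 0 for 30 of the 43 tested genes (69.8%), and the median of the 43 means was -0.26. Over all tested genes, 53.7% had a mean below 0 and the median was -0.02. Of the 43 genes, 9 (20.9%) were lower in HG on all 4 arrays, against 8.04% of all tested genes, and 1 gene, PSMA6, was higher on all 4 arrays, against 6.05% of all tested genes. None of the 43 passed the adjusted threshold of 0.05 in limma's moderated test with Benjamini-Hochberg adjustment over 8865 genes (0 of 8865 in all, 0% of genes, smallest adjusted p = 0.763). At an unadjusted p under 0.05 there were 7 proteasome genes (16.3%), all with lower signal in HG and 0 with higher. Over all tested genes, 4.12% had such a p and lower signal, 2.37% such a p and higher signal, 6.49% in all. A simulation on 8865 genes and 4 arrays used each gene's SD and added a dye effect, so its spread was wider than in the data. There, 1.49% of the 67 genes given a 2-fold change passed the adjusted threshold, against 61.2% of the 67 changed by 2 log2 units. Of the genes given no change, 2 passed. The shares of changed genes that passed may be too low for the data.

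The median over the 43 genes lay below that of all tested genes on each array. It was -0.27, -0.13, -0.28 and -0.29 for the proteasome genes, against -0.04, 0.00, -0.01 and -0.03 for all genes. The difference was -0.22 ± 0.06, negative on 4 of 4 arrays. On arrays 1 to 4, 23, 27, 30 and 30 of the 43 genes were below 0. With arrays 2 and 4 alone, where the stromal medians were -0.06 and -0.64, the median over the proteasome genes was -0.23 and 29 of 43 genes lay below 0. With the sign of array 3 turned, an alternative to the labels' dye record, 23 of 43 genes lay below 0 and the median was -0.06.

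**Figure D1:**
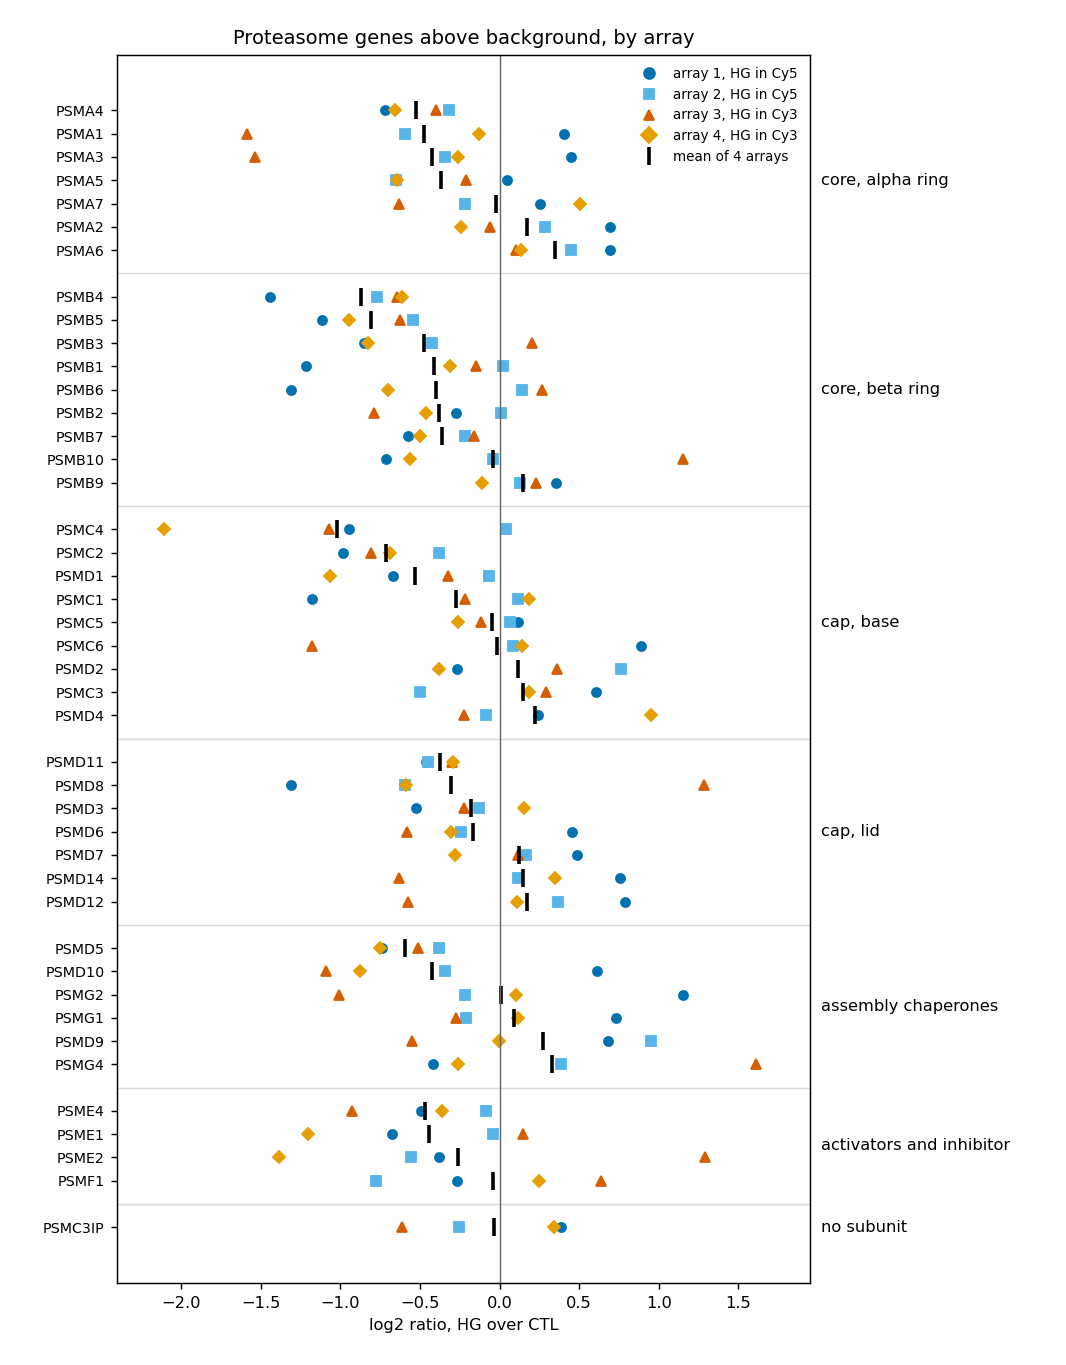
Log2 ratio of HG over CTL (horizontal axis) of the 43 proteasome genes above background, each shown by its brightest tested probe and grouped by class. Symbols are the 4 arrays and black bars their mean; most bars lie left of 0 in the beta ring (8 of 9), while those of the assembly chaperones lie on both sides (2 of 6 below 0).

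Core, cap and activators were compared as classes. Of 16 tested core genes 13 had a mean below 0 and 4 were lower on all 4 arrays, and the median of the means was -0.39. Of 16 tested cap genes 10 had a mean below 0 and 3 were lower on all 4 arrays, with a median of -0.11. All 3 tested activators had a mean below 0 and 1 was lower on all 4 arrays, with a median of -0.44. The class medians on arrays 1 to 4 were -0.43, -0.22, -0.19 and -0.48 for the core. They were -0.08, -0.01, -0.26 and -0.27 for the cap, and -0.50, -0.09, 0.15 and -1.20 for the activators. The core lay below the cap by -0.35, -0.21 and -0.21 on arrays 1, 2 and 4 and above it by 0.07 on array 3, a mean difference of -0.17 ± 0.18. That difference was no larger than its spread over arrays. Activators minus core gave -0.08 ± 0.46 and activators minus cap -0.25 ± 0.56, both within the spread. Core minus all tested genes was -0.31 ± 0.13 and cap minus all tested genes -0.14 ± 0.13, each negative on 4 of 4 arrays. The cap median was -0.0602 without array 1 and -0.0285 without array 3, and the activator median -0.19 without array 4. The medians over gene means differed by -0.28 between core and cap, and by 0.0022 with the sign of array 1 turned.

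**Figure D2:**
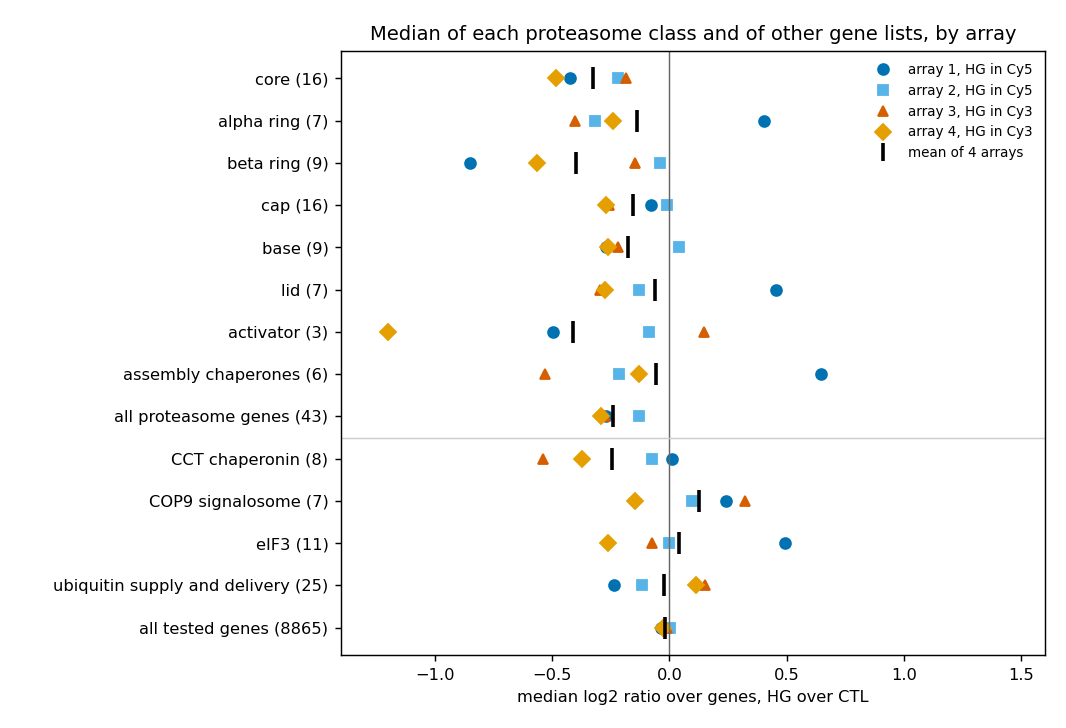
Median log2 ratio of HG over CTL over the tested genes of each class or list (number of genes in brackets). Symbols are the 4 arrays and black bars the mean of the 4 array medians; the core medians lie between -0.48 and -0.19, and alpha and beta ring lie on opposite sides of 0 on array 1 (0.40 and -0.85).

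Within the core, 8 of 9 tested beta-ring genes and 5 of 7 tested alpha-ring genes had a mean below 0. The rings differed most on array 1, where 8 of 9 beta genes but 1 of 7 alpha genes were below 0. Alpha-ring medians were 0.40, -0.32, -0.40 and -0.24, and beta-ring medians were -0.85, -0.04, -0.15 and -0.56. The difference, alpha minus beta, was 1.25, -0.28, -0.26 and 0.32, or 0.26 ± 0.72, so the rings were not separated beyond the spread over arrays. Arrays 1 and 3, the pair with opposite marker displacement, had opposite signs in 25 of the 43 proteasome genes. Opposite signs were common over all 8865 tested genes too: 2747 were above 0 on array 1 and below 0 on array 3, and 2901 the reverse. Of the 25 proteasome genes, 16 were above 0 on array 1 and below 0 on array 3 (37.2%, against 30.99% of all genes), among them 5 of 7 alpha-ring genes and 4 of 6 assembly chaperones. The other 9 ran the other way (20.9%, against 32.7% of all genes), among them 3 of 9 beta-ring genes, PSME1, PSME2 and PSMF1. The part of the stromal and cumulus markers in these signs was not tested.

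The beta ring gave the lowest core values. PSMB4, a beta subunit without a cutting site, had levels of 11.05, 11.22, 11.64 and 11.98 in HG pools, against 12.49, 11.99, 12.29 and 12.59 in CTL pools. Every HG pool lay below every CTL pool. The ratios were -1.44, -0.77, -0.65 and -0.61, a mean of -0.87 ± 0.39 or 1.82-fold lower signal in HG (limma, adjusted p = 0.763). Its mean ranked at the 0.823 percentile of the 8865 gene means. Both other probes of PSMB4 were also lower on all 4 arrays, with means of -0.81 ± 0.25 and -0.67 ± 0.18. On array 1, PSMB4 was further from 0 than on the others, and without that array its mean was -0.68.

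The catalytic subunits followed in part. PSMB5, which carries the chymotrypsin-like site, had levels of 11.04, 11.02, 11.86 and 11.51 in HG pools, against 12.16, 11.56, 12.49 and 12.46 in CTL pools. HG was lower within each array, but the groups overlapped, since the lowest CTL pool lay below the highest HG pool. The ratios were -1.11, -0.54, -0.62 and -0.95, a mean of -0.81 ± 0.27 or 1.75-fold lower signal (limma, adjusted p = 0.763). PSMB7, the trypsin-like subunit, had ratios of -0.58, -0.22, -0.16 and -0.50 (-0.36 ± 0.20, limma, adjusted p = 0.791). Its other 2 tested probes had means of -0.17 ± 0.20 and -0.42 ± 0.21, and the first of these was above 0 on array 2. PSMB6, the caspase-like subunit, was lower on arrays 1 and 4 (-1.31 and -0.70) and higher on arrays 2 and 3 (0.14 and 0.26), with a mean of -0.40 ± 0.74 (limma, adjusted p = 0.948). Without array 1 the mean of PSMB6 was -0.10, and its second probe had a mean of -0.14 ± 0.10.

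The inducible subunits replace the catalytic ones in the immunoproteasome of immune and inflamed cells, and 2 of the 3 were tested. PSMB9, which replaces PSMB6, was dim: it was above background in 4 of 4 HG pools and 3 of 4 CTL pools. Its ratios were 0.35, 0.13, 0.23 and -0.11 (0.15 ± 0.20, limma, adjusted p = 0.985), and the mean was 0.0823 without array 1 and 0.24 without array 4. PSMB10, which replaces PSMB7, had ratios of -0.71, -0.04, 1.15 and -0.56 (-0.04 ± 0.85, limma, adjusted p = 0.9995). Its value on array 3 stood opposite to the others, as the stromal markers did on that array, and whether the 2 are connected was not tested. Of the other beta subunits, PSMB1, PSMB2 and PSMB3 had means of -0.41, -0.38 and -0.47, each with 1 array above 0. PSMB1 was lowest on array 1 (-1.21), and its second tested probe had a mean of -0.07 ± 0.11.

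In the alpha ring 2 genes had pools that did not overlap, in opposite directions. PSMA4 had levels of 10.15, 10.36, 10.52 and 10.39 in HG pools, against 10.87, 10.68, 10.92 and 11.05 in CTL pools. The ratios were -0.72, -0.32, -0.40 and -0.65, a mean of -0.52 ± 0.19 or 1.44-fold lower signal (limma, adjusted p = 0.763). PSMA6 had levels of 15.04, 15.02, 14.98 and 15.09 in HG pools, against 14.35, 14.57, 14.87 and 14.96 in CTL pools. Its HG pools were nearly level with each other, and every one lay above every CTL pool. The mean signal of PSMA6, 14.86, was near the highest of the 43 genes (14.88), and whether such bright spots were compressed was not tested. The ratios were 0.69, 0.45, 0.10 and 0.13, a mean of 0.35 ± 0.28 with a 95% interval of -0.10 to 0.79 (limma, adjusted p = 0.842), and without array 1 the mean was 0.23. The second probe of PSMA6 had 1 array below 0 (0.97, 0.34, -0.60 and 0.13). Over the 43 genes, 2 (PSMA4 and PSMB4) had every HG pool below every CTL pool and 1 (PSMA6) every HG pool above. Over all tested genes these shares were 2.21% and 1.35%, and no reading is drawn from counts this small.

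The other alpha genes were uneven over arrays. PSMA1 and PSMA3 each had 1 low array, array 3 (-1.59 and -1.53), and were above 0 on array 1 (0.40 and 0.45). PSMA5 had a mean of -0.37 ± 0.34 with array 1 at 0.05, and PSMA7 a mean of -0.02 ± 0.51. PSMA2 depended on the probe: its brightest gave 0.17 ± 0.41, while the other 4 tested probes had means of -0.53, -0.48, -0.34 and -0.12.

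**Figure D3:**
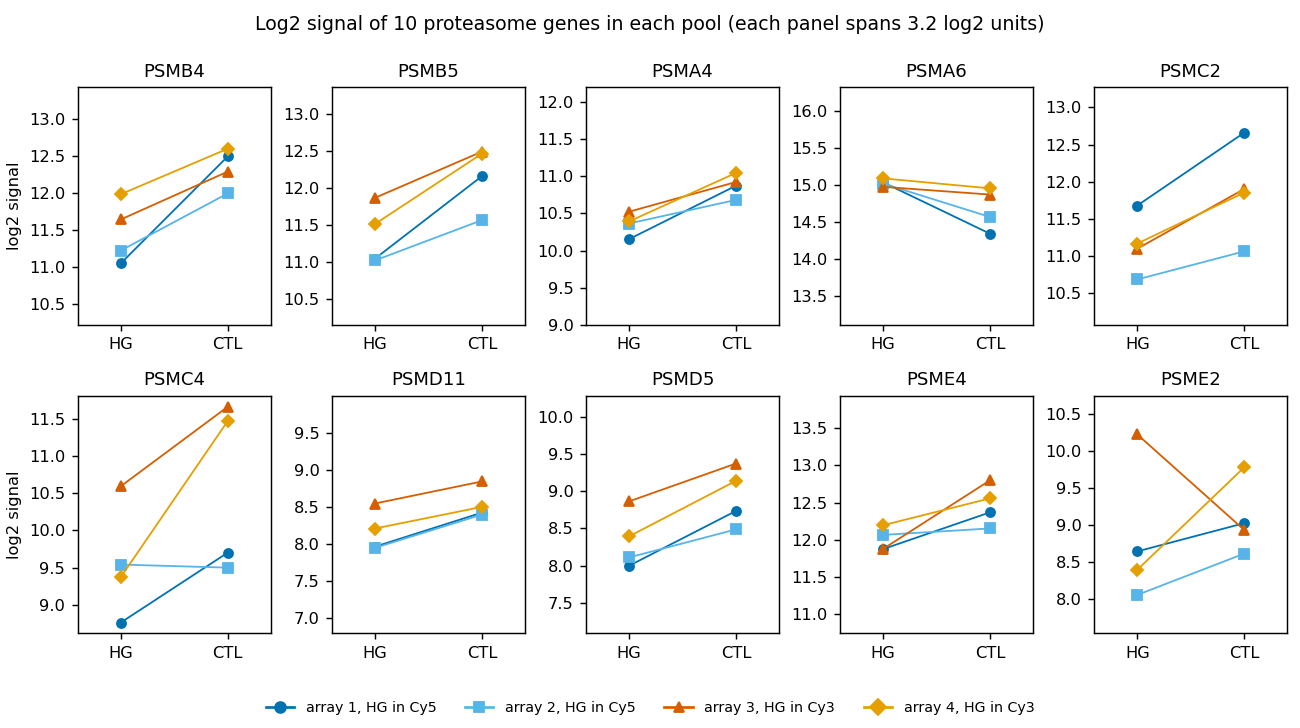
Normalised log2 signal of 10 proteasome genes in the HG pool (left) and the CTL pool (right) of each array, with 1 line per array and the same span of log2 units in every panel. Lines fall to the left in all 4 arrays for PSMB4, PSMB5, PSMA4, PSMC2, PSMD11, PSMD5 and PSME4, run the other way for PSMA6, and cross for PSME2.

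Of the 9 tested base genes 6 had a mean below 0, and 5 of these were among the 6 ATPases. PSMC2, an ATPase, had ratios of -0.98, -0.38, -0.80 and -0.69, a mean of -0.71 ± 0.25 or 1.64-fold lower signal in HG (limma, adjusted p = 0.763). Its levels were 11.68, 10.68, 11.10 and 11.17 in HG pools, against 12.66, 11.06, 11.90 and 11.85 in CTL pools. HG was lower on every array, although the spread between arrays made the groups overlap. PSMC4, another ATPase, had the lowest mean of all 43 genes, -1.02 ± 0.88 (limma, adjusted p = 0.763). Its ratios were -0.94, 0.04, -1.07 and -2.10, so array 2 showed none of the difference and array 4 the largest. The mean of PSMC4 was -0.66 without array 4 and -1.37 without array 2. The other 4 ATPases had means between -0.27 (PSMC1) and 0.15 (PSMC3).

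PSMD1, a scaffold of the base, had ratios of -0.67, -0.06, -0.32 and -1.07 (-0.53 ± 0.43, limma, adjusted p = 0.763). The ratio was below 0 on all 4 arrays but close to it on array 2, and without array 4 the mean was -0.35. PSMD2, the second scaffold, and PSMD4, a receptor for ubiquitin chains, had means of 0.12 ± 0.54 and 0.22 ± 0.52.

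In the lid, 4 of 7 tested genes had a mean below 0, and no probe on the array was annotated to PSMD13. PSMD11, a lid scaffold subunit, had the smallest spread of all 43 genes, with ratios of -0.46, -0.45, -0.30 and -0.29 (-0.37 ± 0.09, limma, adjusted p = 0.763). Its levels were 7.97, 7.95, 8.55 and 8.21 in HG pools, against 8.43, 8.40, 8.85 and 8.50 in CTL pools, and the groups overlapped through the HG pool of array 3. PSMD3 was above background in 3 of 4 HG pools and 4 of 4 CTL pools, with ratios of -0.52, -0.13, -0.22 and 0.16 (-0.18 ± 0.28, limma, adjusted p = 0.985). Its mean was -0.0652 without array 1 and -0.29 without array 4. PSMD14, the enzyme that cuts off the ubiquitin chain, had a mean of 0.15 ± 0.58, and PSMD12, PSMD7, PSMD6 and PSMD8 had means between -0.30 and 0.17. PSMD8 was the most uneven of the lid, at -1.31, -0.59, 1.28 and -0.59.

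The lid is related by descent to the COP9 signalosome, which trims the ubiquitin-like NEDD8 from ligases, and to the translation initiation factor eIF3. Of 7 tested COP9 genes 2 had a mean below 0 (median 0.06), and of 11 tested eIF3 genes 5 had (median 0.00). The lid minus COP9 difference was -0.19 ± 0.34 and lid minus eIF3 -0.10 ± 0.10. Neither was clearly larger than its spread, although lid minus eIF3 was negative on 4 of 4 arrays. COPS2, a COP9 subunit, was higher on all 4 arrays by a small amount (0.28 ± 0.06, limma, adjusted p = 0.848), while 2 eIF3 genes, EIF3D and EIF3H, were lower on all 4 (EIF3D -0.64 ± 0.43, limma, adjusted p = 0.763). CCT, the barrel-shaped chaperonin that folds actin and tubulin, had 7 of 8 tested genes below 0 with a median of -0.16. CCT6A was its 1 member lower on all 4 arrays (-0.35 ± 0.17, limma, adjusted p = 0.791). Core minus CCT was -0.08 ± 0.33.

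Of the assembly chaperones, 2 of 6 had a mean below 0, with a median over the 6 of 0.05. PSMD5, which helps to build the base, was lower on all 4 arrays: its ratios were -0.74, -0.38, -0.51 and -0.75 (-0.59 ± 0.18, limma, adjusted p = 0.763). Its levels were 7.997, 8.11, 8.86 and 8.39 in HG pools, against 8.74, 8.49, 9.38 and 9.14 in CTL pools. PSMD10, or gankyrin, also a base chaperone, was 0.61 on array 1 and -0.34, -1.09 and -0.88 on the others (-0.42 ± 0.76, limma, adjusted p = 0.937). Without array 1 the mean of PSMD10 was -0.77, and without array 3 it was -0.20. PSMD9, the third base chaperone, had a mean of 0.27 ± 0.68. The core chaperones PSMG1, PSMG2 and PSMG4 had means of 0.09 ± 0.46, 0.01 ± 0.89 and 0.33 ± 0.92. Less bright probes did not all share these signs. The second tested probe of PSMG2 had a mean of -0.22 ± 0.48 and that of PSMG4 0.11 ± 0.66, and the other tested probes of PSMG1 had means of -0.08, 0.21 and 0.25. The class had medians of 0.65, -0.22, -0.53 and -0.13 on the 4 arrays, whose mean of -0.06 has the opposite sign to the median of the gene means. Minus the core it gave 0.27 ± 0.60, so chaperones and core were not separated beyond the spread.

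Among activators, PSME4 encodes the large single-chain activator PA200, known in mammals for a role in spermatogenesis. Its levels were 11.87, 12.06, 11.88 and 12.19 in HG pools, against 12.37, 12.15, 12.80 and 12.56 in CTL pools. The ratios were -0.50, -0.09, -0.93 and -0.36 (-0.47 ± 0.35, limma, adjusted p = 0.763). HG was lower on every array, but the groups overlapped, since the highest HG pool (12.19) lay above the lowest CTL pool (12.15). A second probe of PSME4 was lower on all 4 arrays too (-0.23 ± 0.23). With the sign of array 3 turned, the mean of PSME4 was -0.0050.

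PSME1 and PSME2 encode the alternating subunits of the PA28 ring, which interferon induces together with the inducible beta subunits. PSME1 had ratios of -0.68, -0.04, 0.15 and -1.20 (-0.44 ± 0.61, limma, adjusted p = 0.880), and without array 4 its mean was -0.19. PSME2 had levels of 8.64, 8.06, 10.22 and 8.39 in HG pools, against 9.02, 8.61, 8.93 and 9.78 in CTL pools. Its ratios were -0.38, -0.56, 1.29 and -1.38 (-0.26 ± 1.12, limma, adjusted p = 0.996), the widest spread of all 43 genes, and without array 4 the mean was 0.12. No probe was annotated to PSME3. PSMF1, an inhibitor of the isolated core, was above background in 3 of 4 HG pools and 4 of 4 CTL pools and had ratios of -0.27, -0.78, 0.64 and 0.25 (-0.04 ± 0.62, limma, adjusted p = 0.9995). On array 3, the HG pool was the higher one for the brightest probes of PSME1, PSME2, PSMF1 and both tested inducible subunits. This sign was not particular to them: 30 of the 43 proteasome genes and 4480 of 8865 tested genes were below 0 there, and the rest were not. Other members above 0 on array 3 included PSMG4 (1.61), PSMD8 (1.28), PSMD2 and PSMA6, while the activator PSME4 was below 0 (-0.93). The less bright tested probes of PSMF1 were below 0 on that array (-0.22 and -0.25). PSMB9 was above 0 on arrays 1 and 2 as well. The summed stromal signal was highest in that same HG pool, and its part in these values was not tested.

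**Figure D4:**
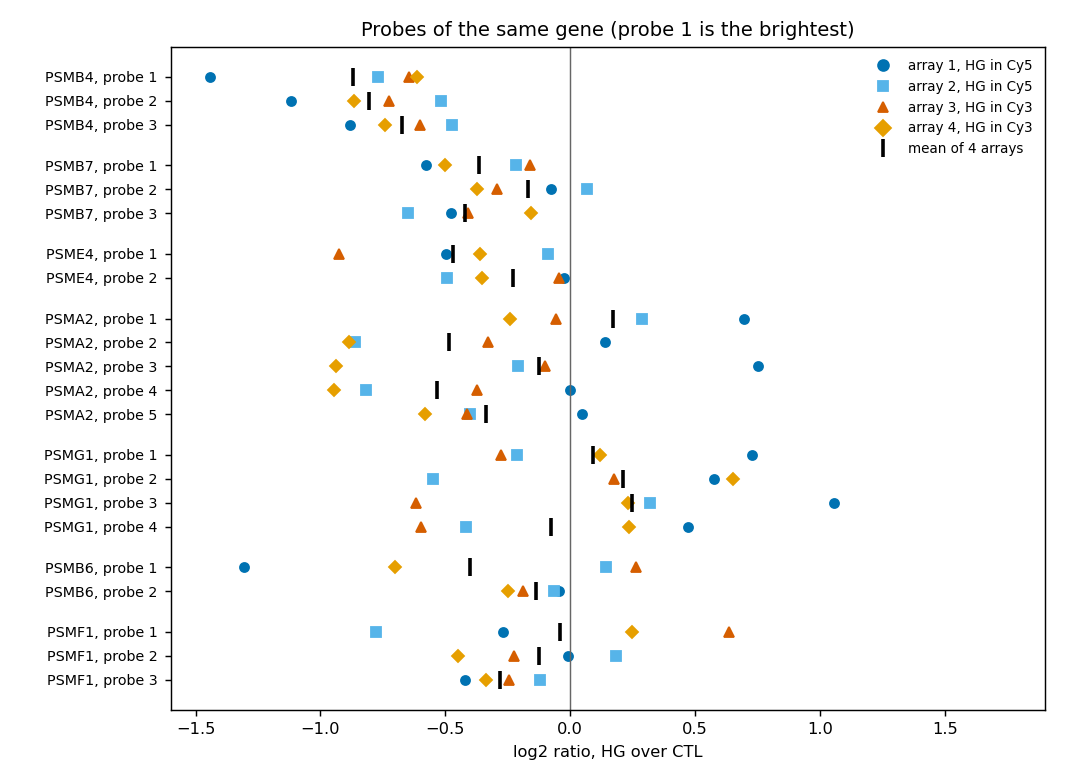
Log2 ratio of HG over CTL of every tested probe of 7 proteasome genes with several probes, numbered by brightness. Symbols are the 4 arrays and black bars their mean; the 3 PSMB4 probes lie below 0 on every array, while the brightest PSMA2 probe (mean 0.17) differs in sign from the other 4.

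Of the 43 tested genes, 15 had several tested probes, and in 6 of these the probe means differed in sign. Brightness did not sort the values: over the 43 genes, mean signal and mean ratio had r = 0.117 and Spearman's rho 0.122, a description across genes that share arrays. The SD over arrays of a proteasome gene ran between 0.09 (PSMD11) and 1.12 (PSME2), with a median of 0.49, against a median of 0.47 over all tested genes. Between arrays, the 43 ratios correlated at r = 0.546 for arrays 1 and 4 and at r = -0.298 for arrays 1 and 3, with the other pairs between -0.0778 and 0.277. These 43 points share the 4 pools and are not replicates. A dye term, Cy5 over Cy3, had an unadjusted p under 0.05 for PSMD9 and PSMF1 in limma, 2 of 43 genes against 6.32% of all genes, and 0 genes at an adjusted p.

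Genes that work around the proteasome were described from lists of known members. Of 13 tested proteasome-bound or proteasome-regulating genes outside the naming rule, 5 had a mean below 0 (median 0.06) and 0 were lower on all 4 arrays. AKIRIN2, which carries proteasomes into the nucleus, was higher on all 4 arrays (0.18, 0.74, 0.07 and 0.32, mean 0.33 ± 0.29, limma, adjusted p = 0.856). SEM1, a small lid protein, had ratios of -0.11, 0.27, -0.85 and -1.07 (-0.44 ± 0.63, limma, adjusted p = 0.889). The chaperone POMP, the ubiquitin receptor ADRM1 and the regulators NFE2L1 and NFE2L2 had means of 0.01, 0.08, -0.13 and 0.19. Of 25 tested genes that supply or deliver ubiquitin, 14 had a mean below 0 (median -0.01), and 2 were lower and 2 higher on all 4 arrays. The conjugating enzyme UBE2D3 had ratios of -0.34, -0.51, -0.54 and -0.46 (-0.46 ± 0.09, limma, adjusted p = 0.763). The shuttle RAD23B had a mean of -0.62 ± 0.54 and the activating enzyme UBA6 a mean of 0.53 ± 0.49 (limma, adjusted p = 0.763 and 0.791).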

How the data were processed

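The proteasome genes, their classes and the other gene lists were chosen with earlier results of these data known. Per the labels' protocols, the RNA of a pool went through a linear T7 amplification of more than 1 round before Cy3 or Cy5 was coupled to its guanines. Relative levels of transcripts could shift in amplification. The deposited scanner files hold raw spot intensities, neither corrected nor normalized, per the file headers. A second deposited table holds the authors' log2 ratios, for which the submitters' processing notes name limma with no version. Set against the scanner values, the deposited log2 ratios run as Cy5 over Cy3 on each array (r = 0.976, 0.988, 0.992 and 0.993, column medians 0.02, 0.00, 0.00 and -0.01). Their background correction and normalization stay unknown, and they served as an alternative, turned on arrays 3 and 4.

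Mean spot intensities were corrected with normexp (offset 50, median local background) and normalized by loess within arrays, where control spots had weight 0 (limma 3.58.1, R 4.3.3). The ignored spots of the files, 29, 151, 140 and 92 on arrays 1 to 4, were left out. Above background means a log2 signal more than 2 SD over the mean of that array's 153 negative control spots in the same channel. On the 4 arrays this held for 54.7 to 62.6% of probes in HG, with the highest share on array 3, and 50.3 to 57.1% in CTL. The highest raw intensity of a proteasome spot on an array was 34952 to 36314. Whether the brightest spots were compressed was not tested. Of 45220 spots, 43794 were transcript probes, and 20198 were tested. A gene was represented by its brightest tested probe. Symbols came from the platform annotation (21790 probes), and 14114 of 15229 symbols were current in the RefSeq table of ARS-UCD2.0, as were all 47 proteasome symbols. No member sequences are shown. Levels are values after loess and Aquantile.

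Ratios turned to HG over CTL were tested against 0 in limma (lmFit, then eBayes), and p-values of all genes were adjusted together after Benjamini-Hochberg, with a threshold of 0.05. Each array pairs 1 HG with 1 CTL pool, as the submitters' design states. Whether the pools stem from different fertilizations is not given in the labels, so that p-values cover only the spread between these pools. The number of arrays, 4, limits the precision. The text gives array values for catalytic and inducible beta subunits, activators, the inhibitor, genes with the same sign on all 4 arrays and the 2 smallest p-values of each class, and for up to 4 genes of each other list. Values of other genes, and of second probes, were added after their values were seen. Alternatives were 2 background settings, median intensities, 3 other normalizations, the deposited ratios, 2 filters, the mean of probes, a dye term, array 1 or 3 turned, arrays 2 and 4 alone, each array left out, separate channels without the pairing, and, chosen after seeing the data, the mean of the local background. The procedure was tested on simulated data.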

Additional observations from a re-analysis of the deposited data

Results flagged for a closer look

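In 1 of 48 results examined, a single array lay far from the rest, where chance gives about 1 in 20. The median over the 43 proteasome genes was -0.13 on array 2, against -0.29 to -0.27 on arrays 1, 3 and 4. The gap from array 2 to the nearest other array made up 0.866 of the whole range, above Dixon's limit for 4 values. The median was below 0 on that array as on the others, with 27 of 43 genes below 0, and what sets array 2 apart was not tested.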

How the results depend on the processing

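Under 20 alternatives, 0 proteasome genes passed the adjusted threshold (limma, smallest adjusted p = 0.187, with arrays 2 and 4 alone), and 3 to 10 had an unadjusted p under 0.05. Over all genes 33 passed with arrays 2 and 4 alone. Between 23 (array 3 turned) and 33 of the proteasome genes had a mean below 0, and between 28 and 32 with 1 array left out. Without the pairing of pools by array (separate channels, no replicate block), 0 passed, with 4 at an unadjusted p under 0.05. That fit returns the same means by construction, so its 30 of 43 genes below 0 were fixed in advance. The median over all proteasome genes was -0.35 with median centring, -0.18 with no filter, -0.0617 with array 3 turned and -0.15 with array 1 turned, and between -0.20 and -0.18 with 1 array left out. The activator median was -0.44 in the analysis reported, -0.11 with array 1 turned and -0.26 with median spot intensities. With array 1 turned, the core median was -0.15 and the medians of core and cap over gene means, which differed by -0.28, differed by 0.0022. With array 3 turned, the core median was -0.27, the cap median -0.03 and the activator median -0.52. With 1 array left out, the cap median ran from -0.12 to -0.03 and the activator median from -0.64 to -0.19.

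Of the 19 genes that the naming rule picked, which leaves out PSMC3IP and PSMD8, 11 changed sign under none of the alternatives run for them: PSMA4, PSMB4, PSMB5, PSMB7, PSMC2, PSMC4, PSMD1, PSMD5, PSMD11, PSME1 and PSME4. All of these but PSMC4 and PSME1 had the same sign on all 4 arrays, which is itself a ground of the naming rule. For them, leaving arrays out or taking arrays 2 and 4 alone could not reverse the sign, so those alternatives do not speak to its stability. For every gene, the dye term and the separate channels return the same mean by construction, and Aquantile leaves the ratios unchanged. The 2 filters keep the mean where the same probe represents the gene. The mean of probes is unchanged for a gene with 1 tested probe. These alternatives do not speak to the sign either. With array 1 turned, signs were reversed for PSMA6 (-0.00061), PSMB6 (0.25), PSMB9 (-0.0268), PSMB10 (0.31), PSMD3 (0.0818) and PSMF1 (0.0934). PSMD10 was 0.12 with array 3 turned and PSMD3 0.0127 with arrays 2 and 4 alone. PSMB10 was 0.0653 as the mean of its probes, and between -0.44 and 0.18 with 1 array left out. PSMF1 was 0.0101 with median intensities and between -0.27 and 0.21 with 1 array left out, and PSME2 between -0.77 and 0.12. The cause was not tested. The authors' deposited log2 ratios gave 28 of 43 genes below 0 and -0.79 for PSMB4, -0.75 for PSMB5 and -0.65 for PSMC2.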
